A study of Homo sapiens and Mus musculus with 36 samples.

Results

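The genes described are the nuclear genes of oxidative phosphorylation: the subunits of respiratory complexes I to IV, the electron carrier cytochrome c, and the subunits of ATP synthase (complex V). They were taken by symbol: every gene named NDUFA, NDUFB, NDUFC, NDUFS or NDUFV with a number, the SDH genes of complex II, the UQCR genes and CYC1 of complex III, CYCS, the numbered COX subunit genes of complex IV and the ATP5 genes, with pseudogenes, antisense RNAs and read-through transcripts set apart. The rule took 86 of 26457 genes in the HuH-7 guide RNA libraries, 82 of 15899 in the HuH-7 inhibitor libraries and 84 of 22673 in the mouse libraries. The 86 human members comprised 36 genes of complex I, 4 of complex II, 10 of complex III, CYCS, 17 of complex IV and 18 of complex V. A few members need a remark: ATP5S and ATP5SL carry the family name but are not subunits, UQCRHL and ATP5L2 are near-identical copies of UQCRH and ATP5L whose reads the counting could split, and NDUFA4, named after complex I, was placed with complex IV, where the protein sits.

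Complexes I and II pass electrons from NADH and succinate to ubiquinone, complex III passes them on to cytochrome c, and complex IV hands them to oxygen. Complexes I, III and IV pump protons out of the mitochondrial matrix, and ATP synthase makes ATP as protons flow back. Complex I is built of a few conserved core subunits and many accessory ones, and several complex IV subunits exist as tissue-specific isoforms. Liver cells carry many mitochondria, and hepatocellular carcinoma cells in culture use both glycolysis and respiration. The genes studied here lie in the nucleus. The subunits encoded by mitochondrial DNA were not analysed here.

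The study addressed DOT1L, a histone methyltransferase that marks transcribed genes. Of the cell lines, all established, 3 are hepatocellular carcinomas, HuH-7 from a human and Hepa1-6 and Hep53.4 from mice, while the LLC line derives from a Lewis lung tumour of a mouse. Each line received the control guide RNA sgNeg2, labelled wild type, or sg1 or sg2, labelled as DOT1L or Dot1l knockout, with 2 libraries per guide and line. In HuH-7 these 6 libraries were made without and again with interferon (IFN; its type, dose and time are not given). A further 3 HuH-7 libraries were from cells given EPZ-5676, a small-molecule DOT1L inhibitor, for 7 days, and 3 from cells given DMSO, the solvent, both labelled wild type. That gave 36 bulk RNA-seq libraries. Nothing says that the libraries of a group came from separate cultures, so the tests measure the spread between these libraries. The 2 knockout guides were pooled, giving 4 knockout against 2 control libraries per line.

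Totals per library ranged from 19580588 to 22649969 counts in HuH-7 without IFN, from 47594968 to 61227426 with IFN, from 48912627 to 58628528 in the inhibitor set and from 42637155 to 59686358 in the mouse lines. DOT1L mRNA in the knockout groups was 48.1% of its control in HuH-7 without IFN, 51.2% with IFN, 35.8% in Hepa1-6, 62.8% in Hep53.4 and 50.3% in LLC. With EPZ-5676 it was 93.1%. HuH-7 sgNeg2 libraries had all 10 hepatocyte markers at 5 CPM (counts scaled to library size) or more. Only 9 of the 10 were listed in the mouse libraries. Of these 9, Hepa1-6 sgNeg2 libraries had 6 at that level, Hep53.4 had 2 and LLC had none. LLC also had none of 6 lung epithelial markers and 3 of 5 fibroblast markers at that level. The summed hepatocyte markers were lower in the knockout libraries of HuH-7 without IFN (16400 CPM in both controls, 13300 to 15500) and with IFN (9630 to 9720 in controls, 8640 to 9410). They were also lower in the knockout libraries of Hepa1-6 (17300 to 17400 in controls, 12300 to 12700) and Hep53.4 (923 to 936 in controls, 834 to 896), and with EPZ-5676 (15500 to 15700, against 17500 to 17600). The fibroblast sum in LLC went from 1020 to 1050 CPM in controls to 1450 to 1500. The part of these shifts in the results was not tested. Some HuH-7 libraries stood apart by the GC content of the transcripts they counted. The Spearman correlation across 12593 genes between GC content and a library's log ratio to the other 5 of its set was -0.735 in the second sg2 library without IFN, against 0.089 to 0.388 in the other 5. With IFN, across 11991 genes, it was -0.711 and -0.613 in the sg1 libraries and 0.645 and 0.74 in the sg2 libraries. Values without the second sg2 library are given beside the results of HuH-7 without IFN, and the guide contrast with IFN is given with a correction for GC content.

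In HuH-7 without IFN the knockout libraries had more mRNA of cytochrome c and of 3 subunits of complexes I and IV, and less of 3 subunits of complexes II, IV and V. CYCS, NDUFB3, NDUFV2 and COX6C rose, and SDHA, COX7A2L and ATP5A1 fell. These were 7 of the 81 members tested (8.64%), whereas 11.3% of all 16448 genes were called (6.95% rose and 4.38% fell) by edgeR's quasi-likelihood test at a Benjamini-Hochberg adjusted p below 0.05, so the members were called no more often than other genes. The median log2 change was -0.051 over the members and 0.003 over all genes. The members not tested, COX6A2, COX6B2, COX7A1, COX7B2 and COX8C, are isoforms of muscle, testis or other tissues that were at or near 0 in HuH-7.

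CYCS encodes somatic cytochrome c, which also starts the caspase cascade when it leaves mitochondria. Its level was 182 and 177 CPM in the sgNeg2 libraries, 224 and 228 with sg1, and 240 and 253 with sg2. All 4 knockout libraries lay above both controls, and the log2 change was 0.40 (SE 0.11, adjusted p = 0.0283). NDUFB3, an accessory subunit of the membrane arm of complex I, stood at 38.3 and 38.7 CPM in the controls, 49.9 and 50.6 with sg1 and 48.7 and 55.7 with sg2, a log2 change of 0.41 (SE 0.08, adjusted p = 0.00446). NDUFV2, a core subunit that holds an iron-sulphur cluster in the NADH-oxidising arm, stood at 97.2 and 101 CPM in the controls and between 121 and 135 in the knockout libraries (log2 change 0.34, SE 0.07, adjusted p = 0.00633). COX6C, an accessory subunit of complex IV, went from 90.8 and 99.1 CPM to between 116 and 129 (log2 change 0.37, SE 0.09, adjusted p = 0.0151). None of these 4 genes had a knockout library within the range of the controls.

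SDHA encodes the flavoprotein that oxidises succinate and serves both the tricarboxylic acid (TCA) cycle and the respiratory chain. It was at 127 CPM in both sgNeg2 libraries, 96 and 95.3 with sg1, and 98 and 92 with sg2. The log2 change was -0.42 (SE 0.10, adjusted p = 0.0184), and the other complex II genes, SDHB, SDHC and SDHD, were not called. COX7A2L, which links complexes III and IV into supercomplexes, went from 97.1 and 95.6 CPM to between 78 and 84.3 (log2 change -0.24, SE 0.07, adjusted p = 0.0454). ATP5A1, the alpha subunit of the ATP synthase head, went from 529 and 531 CPM to between 437 and 493 (log2 change -0.21, SE 0.06, adjusted p = 0.0404). For these 3 genes too, every knockout library lay beyond both controls. Over all members tested, 10 had every knockout library above both controls and 28 had every one below, against 23.0% and 23.0% of all genes. Without the second sg2 library these were 12 and 30, against 27.3% and 28.1%.

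The calls depended on single libraries. Without either sgNeg2 library none of the 7 was called, without either sg1 library 5 were, and without the second sg2 library 4 were. With the 2 guides as separate groups 8 members rose and 13 fell, and with a correction for GC content and transcript length 6 rose and 10 fell. The shares of all genes called under these 2 settings are not given here. With sg1 alone 5 members rose and 6 fell (9.64% and 8.77% of all genes), and with sg2 alone 8 and 14 (11.5% and 12.2%). All 7 remained called with the guides as groups, with the correction, under RLE scaling, in DESeq2 and in a fit of the 6 libraries alone.

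The promoters of 3 of the genes called in the same direction here and with the inhibitor (below) are shown because SDHA and CYCS are the members described most here and NDUFB3 changed in the same way as CYCS. Each is the 250 bases before the start site in the RefSeq table for GRCh38.p14 (hg38), read 5′ to 3′ on the gene's strand. Capitals mark the core of the motif of NRF1, an activator of many respiratory chain genes, on either strand: GCGCA and GCGC parted by any 1 base. SDHA is at chr5:218070-218319 on the plus strand, CYCS at chr7:25125261-25125510 on the minus strand and NDUFB3 at chr2:201071751-201072000 on the plus strand.
SDHA: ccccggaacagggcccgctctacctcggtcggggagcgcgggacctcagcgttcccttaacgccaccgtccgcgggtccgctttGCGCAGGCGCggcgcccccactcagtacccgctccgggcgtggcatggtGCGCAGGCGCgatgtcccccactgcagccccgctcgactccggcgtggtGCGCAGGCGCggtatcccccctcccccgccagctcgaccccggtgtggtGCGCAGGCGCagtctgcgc
CYCS: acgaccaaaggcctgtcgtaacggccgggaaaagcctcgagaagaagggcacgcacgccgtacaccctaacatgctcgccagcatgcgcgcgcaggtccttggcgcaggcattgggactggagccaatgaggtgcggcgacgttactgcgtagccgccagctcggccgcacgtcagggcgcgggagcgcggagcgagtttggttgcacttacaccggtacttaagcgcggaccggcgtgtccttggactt
NDUFB3: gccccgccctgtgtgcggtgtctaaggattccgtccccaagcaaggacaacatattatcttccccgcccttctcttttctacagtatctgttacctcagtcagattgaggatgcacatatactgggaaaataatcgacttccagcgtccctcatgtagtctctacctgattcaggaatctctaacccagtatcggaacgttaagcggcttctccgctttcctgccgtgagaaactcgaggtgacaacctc
The SDHA promoter held 4 copies of the word and the other two held none. The 300-base windows of ATP5A1, which also fell, and of NDUFV2, which rose, held none either. Promoters of 69 human members were matched in the table. In windows of 300 bases that include 50 after the start, 16 of the 69 (23.2%) held the NRF1 word, against 7.32% of 22049 promoters of protein-coding genes. The ETS-factor word CCGGAAG was in 18 (26.1%) against 12.8%, and the YY1 word ATGGCGG in 19 (27.5%) against 7.0%. Both strands were searched, and a word describes letters only, not binding. Only exact matches were counted, so a site with other letters is missed. A promoter without the word, such as that of CYCS, is therefore not shown to lack an NRF1 site.

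**Figure D1:**
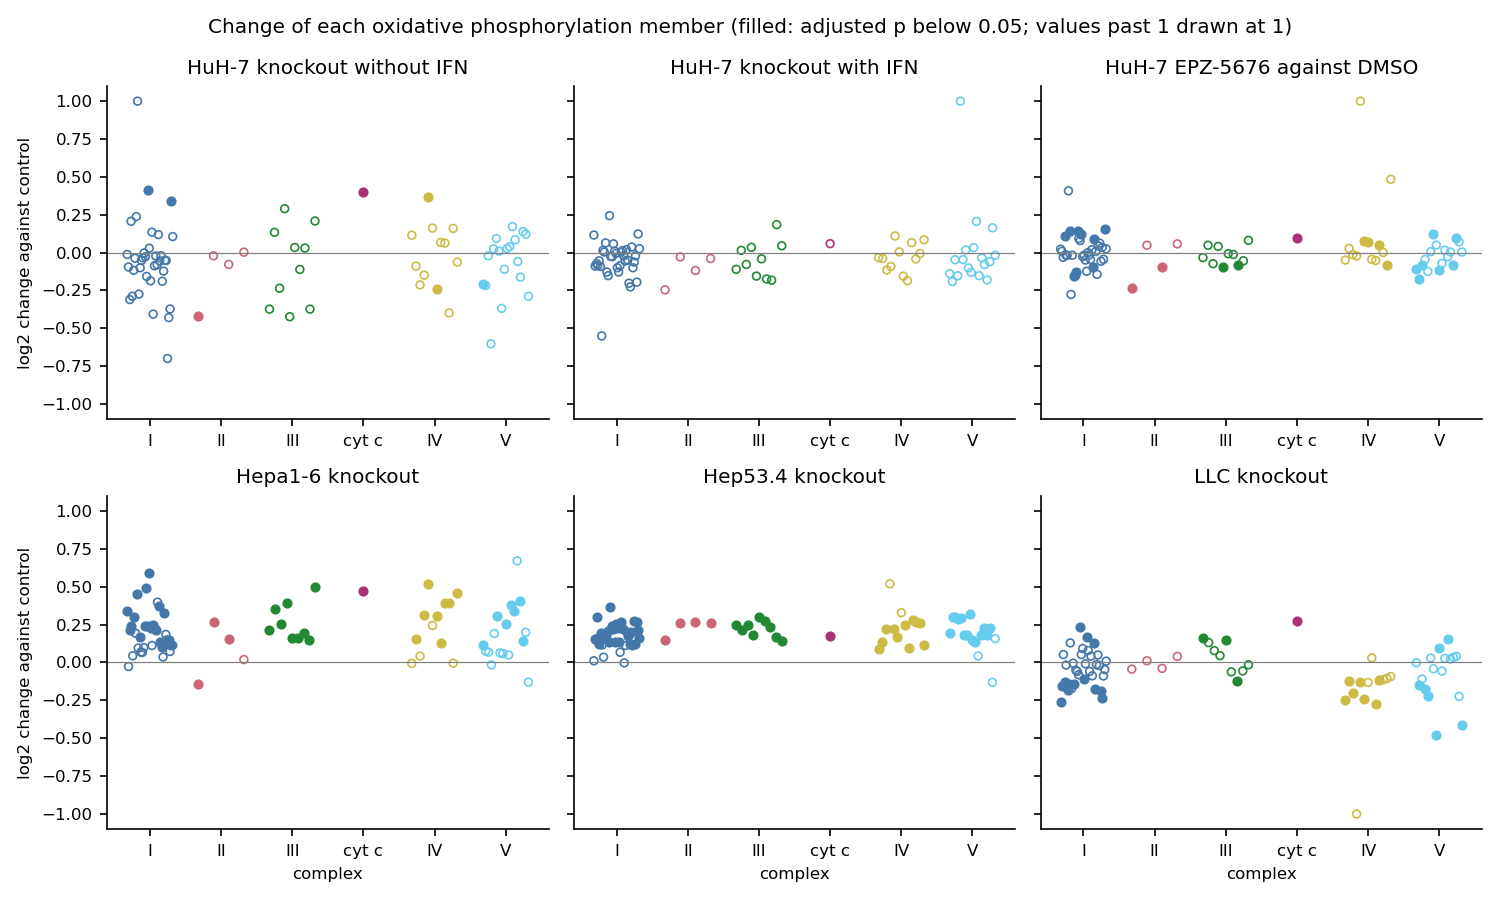
Each point is 1 oxidative phosphorylation member, grouped by complex (cyt c, cytochrome c) on the horizontal axis, with its log2 change against control on the vertical axis, in each knockout or inhibitor comparison. Filled points passed an adjusted p of 0.05. In Hep53.4, 66 filled points lie above 0 and none below, in LLC 23 lie below and 8 above, and in HuH-7 with IFN no point is filled.

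With IFN present, no member passed the test in HuH-7 (0 of 81, against 12.4% of all genes, 7.11% up and 5.27% down, in edgeR). At an unadjusted p below 0.05 there were 1 higher and 7 lower members of the 81, against 24.8% of all genes in either direction. DESeq2 also called 0. Tested alone, sg1 gave 1 rise and 32 falls (9.97% and 16.5% of all genes), and sg2 gave 16 rises and 0 falls (11.1% and 19.7%). Pooling puts this difference between guides into the spread, so 0 calls does not show that no member changed. Some members were also called with guides as separate groups or with the GC and length correction. The median log2 change was -0.042 over the members and -0.058 over all genes. SDHA was at 254 and 238 CPM in the controls, 178 and 188 with sg1, and 230 and 234 with sg2. All 4 knockout values lay below the controls (log2 change -0.25, SE 0.10, adjusted p = 0.143). CYCS was at 503 and 524 CPM in the controls, 616 and 579 with sg1, and 492 and 456 with sg2, so the guides lay on opposite sides of the control. No member was called for a difference in knockout effect between the IFN states (0 of 81, against 0.505% of all genes). At an unadjusted p below 0.05, 7 of the 81 members had a lower effect with IFN and 0 a higher, against 12.9% of all genes in either direction. DESeq2 also called 0. The libraries without and with IFN also differ in kind (below), so 0 calls does not show that the effects were the same.

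The 2 guides differed in the members when IFN was present. Of the 81 members, 44 were higher with sg2 than with sg1 and 2 were lower, at an adjusted p below 0.05 in edgeR's quasi-likelihood test; of all genes 34.4% differed, 16.8% higher and 17.6% lower. This contrast was added after the data were seen. The higher members were 21 of 36 in complex I, 1 of 4 in complex II, 7 of 10 in complex III, 7 of 12 in complex IV and 8 of 18 in complex V. ATP5I, subunit e of ATP synthase, was at 23.8 and 22.8 CPM with sg1 and 55.3 and 50.6 with sg2 (log2 difference 1.18), with the controls between them at 34.2 and 31.7. NDUFB1, an accessory subunit of the membrane arm, was at 13.3 and 12.2 CPM with sg1 and 26.5 and 24.3 with sg2 (log2 difference 1.00), and NDUFS7, a core subunit next to the ubiquinone site, at 28.2 and 30.1 against 48.6 and 54.4 (log2 difference 0.82). The members that were lower with sg2 were CYCS (log2 difference -0.34) and NDUFA5 (-0.48), an accessory subunit of the matrix arm.

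These are the libraries whose counts moved with GC content. Across 15830 genes the sg2 to sg1 difference had a Spearman correlation of 0.664 with GC content and -0.235 with transcript length. After correction for both, 32 members were higher with sg2 and 1 lower, against 7.07% of all genes called. CYCS was then at -0.23 (adjusted p = 0.00126), ATP5I at 0.94 (adjusted p = 1.12e-06) and NDUFB1 at 0.94 (adjusted p = 8.42e-06), while NDUFS7, at 0.34, and NDUFA5, at -0.14, were no longer called (adjusted p = 0.0871 and 0.268). Tested alone against sgNeg2, sg1 gave 1 member that rose and 32 that fell (9.97% and 16.5% of all genes), and sg2 gave 16 that rose and 0 that fell (11.1% and 19.7%), without the correction. In the other settings the guides differed less in the members. Between sg2 and sg1, edgeR called 0 of 81 members in HuH-7 without IFN (0.0304% of all genes; 11 members at an unadjusted p below 0.05) and 0 of 78 in Hep53.4 (2.9%; 10 members). It called 4 of 77 in Hepa1-6 (2.79%) and 9 of 78 in LLC (6.01%), all 9 higher with sg2 (of all genes 3.34% were higher and 2.67% lower). With the GC and length correction, 0 of 81 members were higher and 2 lower with sg2 in HuH-7 without IFN, against 0.234% of all genes called. DESeq2 was not run on the contrast between guides.

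**Figure D2:**
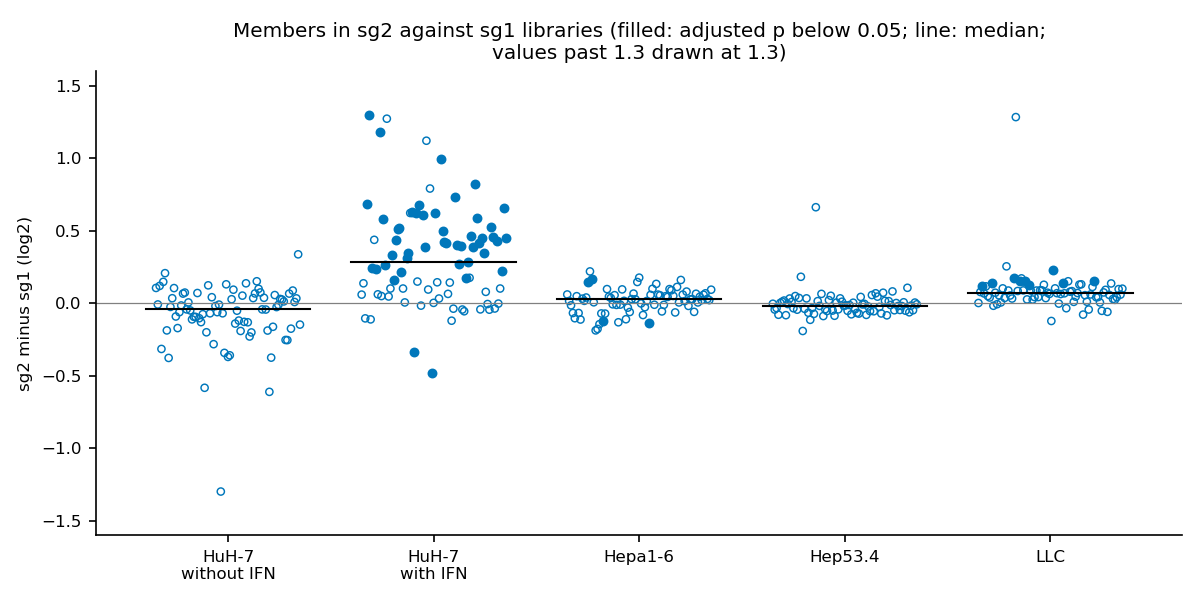
Each point is 1 member, with its log2 difference between the sg2 and sg1 libraries on the vertical axis and the setting on the horizontal axis. Filled points passed an adjusted p of 0.05, and lines are medians; larger differences are drawn at the limit named in the title. With IFN, 44 filled points lie above 0 and 2 below.

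The inhibitor EPZ-5676 moved the members by small amounts in both directions. Of 81 members tested, 12 rose and 14 fell (33.7% of all 15023 genes were called, 15.1% up and 18.6% down), and the median log2 change was -0.012. ATP5L2, COX6A2, COX7A1, COX7B2 and COX8C were not tested. Both main subunits of the ATP synthase head, ATP5B and ATP5A1, were among the falls. ATP5B, the catalytic beta subunit, was at 1590, 1580 and 1580 CPM with DMSO and 1410, 1400 and 1400 with EPZ-5676, a log2 change of -0.17 (SE 0.01, adjusted p = 3.58e-25). SDHA went from 146, 148 and 145 CPM to 122, 124 and 126 (log2 change -0.24, SE 0.03, adjusted p = 4.79e-12). The triplicates did not overlap for either gene.

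NDUFA8, an accessory subunit of complex I, fell by 0.16 on the log2 scale and NDUFA9, which stabilises the junction of the arms, by 0.15. NDUFB1 fell by 0.13, with overlapping groups (adjusted p = 0.0472). ATP5A1 fell by 0.11, from 827, 808 and 800 CPM to 756, 750 and 753, with no overlap. Of the members that rose, NDUFV2 had the largest log2 change, 0.15 (136, 138 and 127 CPM with DMSO; 146, 152 and 146 with EPZ-5676). NDUFB10 (0.15), NDUFA5 (0.14), NDUFB3 (0.12), which are complex I accessory subunits, and ATP5G1 (0.12), a gene for the ring subunit c of ATP synthase, followed. CYCS rose by 0.10 on the log2 scale (SE 0.02, adjusted p = 5.11e-07), from 469, 462 and 464 CPM to 490, 498 and 502, and COX6C by 0.08. By complex, 6 rose and 4 fell in complex I, 2 fell in each of complexes II and III, 3 rose and 1 fell in complex IV and 2 rose and 5 fell in complex V. Groups did not overlap for 16 members above and 18 below, against 21.0% and 23.0% of all genes.

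The knockout without IFN and the inhibitor share no library. Of the 7 members called in the knockout, 6 were also called with EPZ-5676 and all 6 had the same direction: CYCS, NDUFB3, NDUFV2 and COX6C up, SDHA and ATP5A1 down. The changes were smaller with the inhibitor for each of the 6. Of all 1772 genes called in the knockout and tested in both fits, 1223 (69.0%) were also called with EPZ-5676, and 97.2% of those had the same direction. Across all 80 members in both fits 51 (63.7%) had the same sign, against 67.2% of all genes. Without the second sg2 library the 4 members still called, COX6C, NDUFB3, NDUFV2 and SDHA, were all called with EPZ-5676 in the same direction. Of all 1591 genes then called in the knockout, 1134 (71.3%) were also called with EPZ-5676, and 97.3% of those had the same direction.

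**Figure D3:**
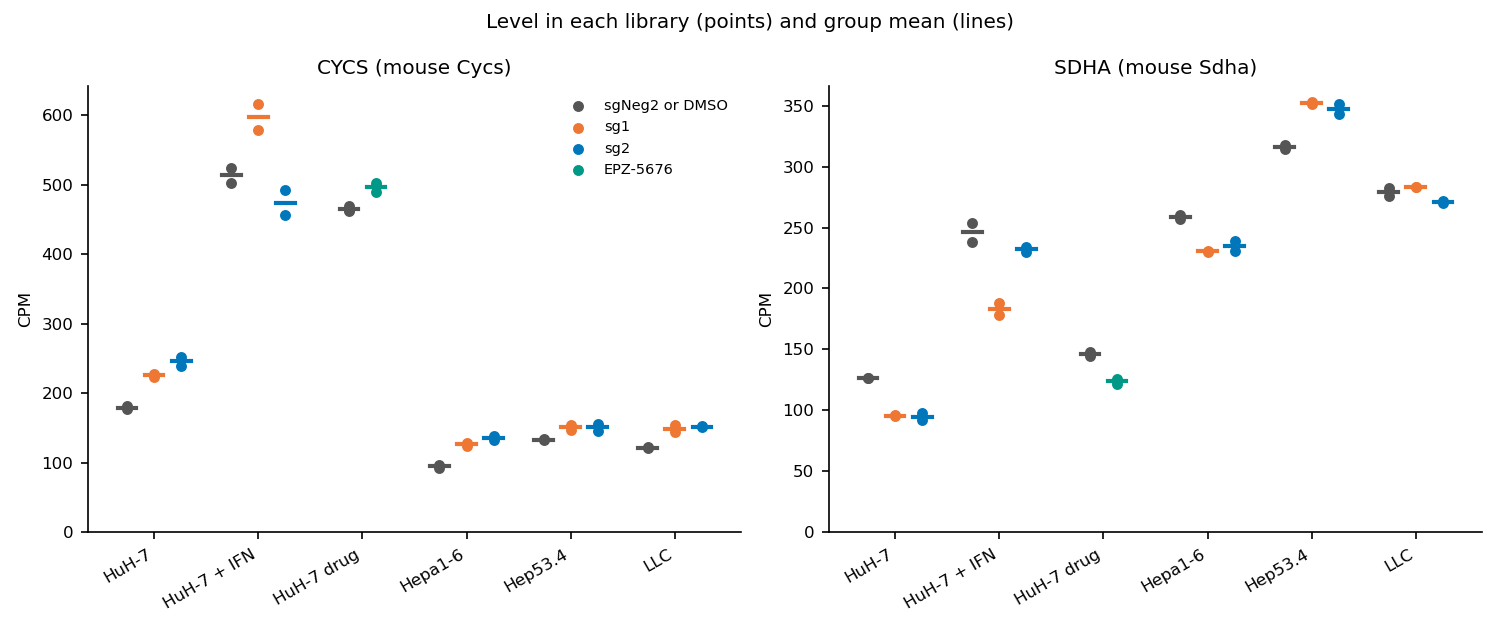
The level of CYCS (left) and SDHA (right) in CPM is shown for each library as a point and for each group as a line, by setting; the mouse lines show Cycs and Sdha. CYCS lies above the controls in every knockout or inhibitor library except the sg2 libraries with IFN, and SDHA lies below in all HuH-7 sets and in Hepa1-6, above in Hep53.4 and on both sides of the controls in LLC.

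In Hepa1-6 most of the respiratory chain rose with the knockout. Of 77 members tested 47 rose and 1, Sdha, fell, while 32.8% of all 12493 genes were called, 14.5% up and 18.3% down. The rises were 20 of 34 members in complex I, 2 of 4 in complex II, 9 of 9 in complex III, Cycs, 8 of 12 in complex IV and 7 of 17 in complex V. The median log2 change was 0.194. All knockout libraries lay above both controls for 54 members and below for 1, against 22.9% and 25.8% of all genes.

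Ndufb4, an accessory subunit of the membrane arm of complex I, had the largest rise and was at 18.7 and 21.3 CPM in the controls and 28.9, 28.3, 31.8 and 31.1 in the knockout libraries (log2 change 0.59, SE 0.08, adjusted p = 6.95e-06). Cox6c went from 114 and 137 CPM to between 172 and 190 (log2 change 0.52, SE 0.07, adjusted p = 0.000174), and Uqcrq, a small subunit of complex III, from 109 and 108 to between 146 and 158 (log2 change 0.50, SE 0.04, adjusted p = 3.65e-09). Ndufb2, another membrane-arm subunit, went from 18.2 and 20.0 CPM to between 24.6 and 27.7 (log2 change 0.49). Cycs went from 92.6 and 97.6 CPM to between 124 and 139 (log2 change 0.47, SE 0.05, adjusted p = 3.69e-08). Among the core subunits the log2 change was 0.16 for each of the complex III core proteins Uqcrc1 and Uqcrc2, 0.21 for Cyc1, which carries the haem that reduces cytochrome c, 0.13 for Ndufs1 and 0.12 for Atp5a1. Sdha went the other way, from 257 and 260 CPM to 230, 231, 231 and 239 (log2 change -0.14, SE 0.04, adjusted p = 0.0025), while Sdhb rose by 0.27. Several members were not called and stood close to 0, among them the complex IV subunits Cox8a (-0.005), Cox5a (-0.006) and Cox6a1 (0.04).

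The first sgNeg2 library of Hepa1-6 was the lowest of the 6 libraries for 54 of 77 members. Without it 27 members rose. With a correction for GC content and length, 25 rose and 8 fell, and 24 of the 48 calls remained. The share of all genes called with the correction is not given here.

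In Hep53.4 almost the whole set rose. Of 78 members tested, 66 rose and none fell in edgeR (0 fell also at an unadjusted p below 0.05 and in DESeq2), while 39.2% of all 12227 genes were called, 19.4% up and 19.7% down. The rises were 27 of 34 in complex I, 4 of 4 in complex II, 9 of 9 in complex III, Cycs, 11 of 13 in complex IV and 14 of 17 in complex V, and the median log2 change was 0.195. All knockout libraries lay above both controls for 71 members and below for none, against 25.3% and 26.7% of all genes. The rises ran from 0.089 (Cox5a) to 0.369 on the log2 scale. Ndufb10 had the largest, from 110 and 109 CPM to 146, 144, 137 and 141 (log2 change 0.37, SE 0.03, adjusted p = 3.73e-10). Atp5g2, another gene for subunit c, went from 189 and 180 CPM to between 218 and 242 (log2 change 0.32, SE 0.03, adjusted p = 6.55e-09). Atp5b went from 2430 and 2370 CPM to 3010, 3020, 2900 and 2870 (log2 change 0.30, SE 0.02, adjusted p = 2.68e-11).

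Ndufa11, a membrane-arm subunit of complex I, and Uqcrc1 each rose by 0.30 on the log2 scale. Cycs was at 133 and 134 CPM in the controls and between 146 and 156 in the knockout libraries (log2 change 0.18, SE 0.03, adjusted p = 0.000127). Sdha, which fell in Hepa1-6, rose here from 318 and 314 CPM to between 343 and 353 (log2 change 0.15, SE 0.03, adjusted p = 6.09e-05). The second sgNeg2 library was the lowest of the 6 for 53 of 76 members, and without it 48 members rose. With the GC and length correction 45 rose and 3 fell, and 44 of the 66 remained called in the same direction. The share of all genes called with it is not given here.

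In LLC, the lung carcinoma line, more members fell than rose. Of 78 tested, 8 rose and 23 fell, against 33.5% of all 12225 genes called, 16.0% up and 17.5% down. The median log2 change was -0.053. The falls were 10 of 34 in complex I, 1 of 9 in complex III, 7 of 13 in complex IV and 5 of 17 in complex V, and the rises 3, 2, 0 and 2, with Cycs. Knockout libraries lay above both controls for 17 members and below for 24, against 29.0% and 20.8% of all genes. Levels are scaled over all 18 mouse libraries and the test over the 6 of the line, so values close to 0 can differ in sign between them.

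Atp5g2, which rose in Hep53.4, went in LLC from 249 and 233 CPM to 163, 174, 184 and 185 (log2 change -0.48, SE 0.05, adjusted p = 1.57e-07). Atp5sl, a complex I assembly protein despite its name, went from 8.83 and 8.73 CPM to between 6.26 and 7.42 (log2 change -0.41, SE 0.10, adjusted p = 0.00456). Cox7a2l went from 483 and 465 CPM to between 376 and 424 (log2 change -0.27, SE 0.05, adjusted p = 0.000122). Ndufa1, an accessory subunit needed for complex I assembly, fell by 0.26 on the log2 scale and Cox5a, a structural subunit of complex IV, by 0.25. Cox6c, which rose in the other 2 mouse lines, fell by 0.24, from 165 and 155 CPM to between 126 and 147.

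Cycs had the largest rise in LLC, from 123 and 121 CPM to 144, 154, 151 and 153 (log2 change 0.27, SE 0.04, adjusted p = 1.84e-05). Ndufb2 (0.23), the accessory subunit Ndufb7 (0.17), Cyc1 (0.16) and Atp5j2 (0.15), a membrane subunit of ATP synthase, followed. Sdha was at 282 and 276 CPM in the controls and between 270 and 283 in the knockout libraries, and was not called. The first sgNeg2 library was the highest of the 6 for 35 of 76 members, and without it 9 members fell. Without the second sgNeg2 library 2 rose. With sg1 alone 9 members rose and 38 fell (19.6% and 20.8% of all genes). With sg2 alone 10 rose and 18 fell (14.2% and 16.4%), and in a fit of all 18 mouse libraries 15 fell.

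The knockout effect differed between the 3 mouse lines for 56 of 78 members (42.1% of all 14195 genes), by an F test of the differences in edgeR's quasi-likelihood framework. Atp5g2 (adjusted p = 3.31e-08), Atp5b (9.01e-08), Atp5d (2.53e-07), the delta subunit of the ATP synthase head, Uqcrq (5.29e-07) and Cox6c (1.28e-05) had the smallest values. Atp5b went from 1660 and 1650 CPM to between 1700 and 1770 in Hepa1-6, rose in Hep53.4, and fell in LLC from 2810 and 2790 to between 2510 and 2670 (log2 change -0.15, adjusted p = 0.0144). Atp5d was between 317 and 338 CPM in all 6 Hepa1-6 libraries, rose in Hep53.4 from 327 and 334 to between 381 and 425, and fell in LLC from 359 and 340 to between 301 and 324. The effect on Cycs differed as well (adjusted p = 0.000961), in size and not in direction.

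Across the 6 knockout or inhibitor comparisons CYCS was the member called up most often, in 5 of 6, the exception being HuH-7 with IFN. COX6C, NDUFB3 and NDUFV2 rose in 4, and COX6C also fell in LLC. For NDUFB3 and NDUFV2 the 4 include Hepa1-6, where the GC and length correction turned them to -0.063 and -0.032. SDHA was the only member to fall in 3 comparisons of the 6 (HuH-7 without IFN, EPZ-5676 and Hepa1-6). Of all members, 71 rose in at least 1 comparison, 35 fell in at least 1 and 32 did both. In each comparison 6.95% to 19.4% of all genes rose and 4.38% to 19.7% fell. The same tally over all genes was not made, so these counts cannot be read as particular to the members. The 2 HuH-7 knockout comparisons come from 1 fit.

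As a share of all counts, the members took 0.798% to 0.831% in HuH-7 without IFN, 1.18% to 1.32% with IFN, 1.22% to 1.24% in the inhibitor set and 1.21% to 1.50% in the mouse lines. The share was 14.9% larger in the Hepa1-6 knockout libraries (1.39% to 1.46% of counts) than in their controls (1.21% and 1.26%), 11.6% larger in Hep53.4 (1.48% to 1.50% against 1.32% and 1.35%) and 1.08% larger in LLC, where the ranges overlapped. In Hepa1-6 and Hep53.4 no knockout library overlapped the controls for any complex. In LLC cytochrome c took a 28.6% larger share, complex III a 9.77% and complex II a 5.01% larger one, all with no overlap, and the share of complex IV changed by -4.72%, with overlap. A share of RNA cannot show how much protein or respiration the cells had.

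**Figure D4:**
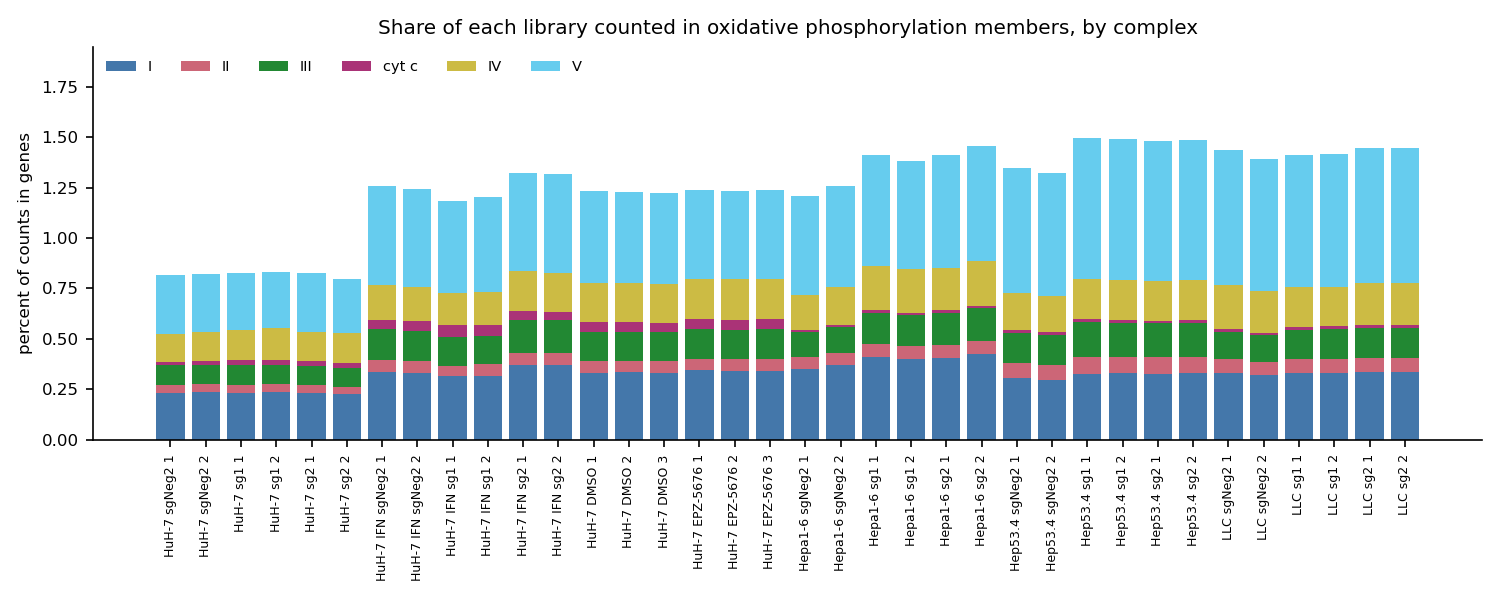
Bars give the percentage of each library's counts that fell in the members, stacked by complex (cyt c, cytochrome c), for all 36 libraries. HuH-7 libraries without IFN lie at 0.798% to 0.831%, below all others, and the Hepa1-6 and Hep53.4 knockout libraries lie above their sgNeg2 controls.

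Per kilobase of transcript, ATP5B was the most abundant member in the HuH-7 sgNeg2 libraries without IFN, at 481 CPM per kb ± 2.24 (SD, n = 2). COX6B1 followed at 320 ± 10.3, then ATP5G3 at 290 ± 3.73, ATP5C1 at 277 ± 2.81 and ATP5A1 at 272 ± 0.727. COX6B1 is a complex IV subunit on the intermembrane side, and the others belong to the ATP synthase ring and head. ATP5C1 and ATP5A1 lay close together, and their order rests on 2 libraries. CYCS was at 184 CPM per kb and SDHA at 53.2. The order was not the same in the other HuH-7 controls. ATP5B was first there too, at 861 CPM per kb with DMSO and 1230 with IFN, but CYCS was the second with DMSO, at 478, and the third with IFN, at 527, while COX6B1 was at rank 10 and 8. Without IFN the median over subunits was highest in complex IV, at 166, then 119 in complex V, 63.9 in complex III, 51.4 in complex I and 51.2 in complex II. Complexes IV, V and III came in that order with DMSO and with IFN as well, and with IFN complex II, at 91.7, lay above complex I, at 80.5. Lengths are those of GENCODE v29 transcripts, and the models behind the counts are unknown here.

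Some subunits that every respiring cell needs were listed at or near 0. ATP5E, the epsilon subunit of the ATP synthase head, lay between 0 and 0.127 CPM in 10 of the 12 HuH-7 guide libraries and at 2.09 and 2.02 in the sg2 libraries with IFN. NDUFA6 and NDUFA3 of complex I lay at about 1 CPM or below, and mouse Ndufs5 was listed at 0 in all 18 libraries. NDUFC2 lay between 146 and 184 CPM without IFN, 13.5 and 15.8 with IFN, and 23.6 and 25.0 in the inhibitor set. How reads shared by overlapping or read-through transcripts were counted is unknown here, so the levels of these genes are uncertain.

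Control cells with IFN were set against control cells without it, and 59 of 81 members were higher with IFN and 4 lower (67.8% of all genes were called, 33.0% up and 34.7% down), with a median log2 difference of 0.695. These libraries also differ in kind. Histone genes took 0.827% to 1.00% of counts without IFN and 0.0329% to 0.0472% with it, and small nuclear RNAs and other small RNAs 1.88% to 3.42% against 0.00885% to 0.0106%, so IFN and kind of library cannot be told apart here. The largest differences were in NDUFS6 (2.03), NDUFS7 (1.62), NDUFA11 (1.61), NDUFS5 (1.61) and NDUFB7 (1.53), all of complex I, and CYCS was higher by 1.50. NDUFC2 was lower by a log2 difference of -3.36 and NDUFB1 by -0.76, which turned to 0.27 with the GC and length correction. The DMSO libraries had a histone share of 0.0335% to 0.0344%. Against them 39 members were higher with IFN and 31 lower (70.4% of all genes called, 35.6% up and 34.7% down), with a median of 0.109. The DMSO libraries have no guide in their labels and belong to the inhibitor set. IFN therefore cannot be told apart from guide, solvent or set. In that comparison ATP5D (1.40) and NDUFB7 (1.15) were the most raised and NDUFB1 (-1.49) and COX6C (-1.23) the most lowered, and CYCS was higher by 0.07. This difference went with GC content, with a Spearman correlation of 0.504 across 14443 genes and 0.662 across the members. Members of 60% GC or more had a median of 0.808 and those of 40 to 45% -0.295. With the GC and length correction 38 members were higher and 25 lower, and 51 of the 70 calls kept their direction.

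Before any knockout the mouse lines differed in most members. Between Hepa1-6 and Hep53.4 controls 27 of 78 were higher in Hepa1-6 and 37 lower (76.2% of all genes differed, 38.2% higher and 38.0% lower). Ndufv3 (1.82), Cox5b (1.21), Ndufc1 (1.13), Ndufs6 (1.07) and Ndufa11 (0.88) were higher in Hepa1-6 on the log2 scale, and Uqcrh (-1.09), Ndufb4 (-0.80), Atp5o (-0.76), Sdhd (-0.75) and Ndufa1 (-0.73) lower. LLC controls had 39 members above the mean of the liver lines and 29 below (79.3% of all genes differed, 41.0% higher and 38.3% lower), with Ndufa1 (1.50), Atp5s (1.20), Ndufa4 (1.03), Cox7b (1.02) and Ndufb4 (0.89) highest and Atp5sl (-1.38), Ndufa6 (-0.86), Atp5a1 (-0.81), Uqcrc2 (-0.64) and Ndufs4 (-0.64) lowest. Atp5a1 lay at 812 and 797 CPM in LLC controls, 1310 and 1310 in Hepa1-6 and 1560 and 1560 in Hep53.4. The lines differ in many ways besides tissue, and 1 line of lung origin cannot stand for the tissue.

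Because the members have short transcripts, with a median of 932 bases against 2607 for all genes tested in HuH-7, the change was also set against length and GC content. Mouse values use the human transcript of the same symbol, a choice made after the data were seen. In Hepa1-6 the change had a Spearman correlation of -0.285 with length across 11297 genes. Genes under 600 bases had a median log2 change of 0.242 and members of that length 0.247, so the shortest members moved as all short genes did. Between 600 and 1000 bases the medians were 0.217 for members and 0.148 for all genes, between 1500 and 2500 they were 0.125 and 0.037, and above 4000, with 6 members, 0.133 and -0.086. In Hep53.4 the correlation with length was -0.186 and members lay above all genes in every length class, with medians of 0.199 and 0.154 under 600 bases, 0.236 and 0.063 at 1000 to 1500, and 0.159 and -0.058 above 4000, where there were 6 members. The change in that line also went with GC content, with a Spearman correlation of 0.24, and members of 60% GC or more had a median of 0.258 against 0.067 for all such genes. In LLC the correlation was 0.084 and members lay below all genes in every class.

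In HuH-7 without IFN the trend was with GC content, a Spearman correlation of -0.282 across 15830 genes and -0.548 across the 81 members. Members of 60% GC or more had a median log2 change of -0.372 and all such genes -0.173. Without the second sg2 library the correlations were -0.141 across 16208 genes and -0.455 across 82 members, and the medians -0.25 and -0.075. The 23 members of 45 to 50% had 0.027 and all such genes 0.020. With EPZ-5676 the correlations were 0.024 with GC content and -0.133 with length. Genes share libraries, so these correlations are descriptions.

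**Figure D5:**
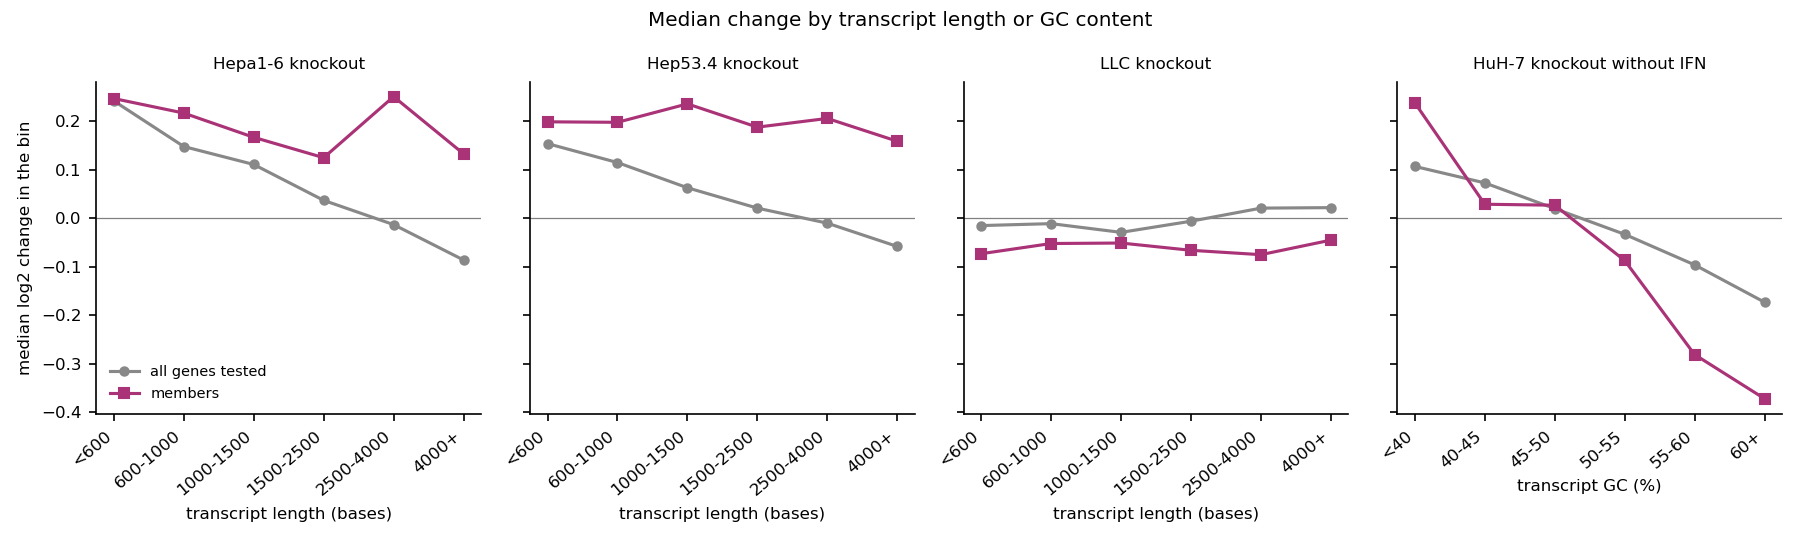
The vertical axis gives the median log2 change of all genes tested (grey) and of members (purple), by class of transcript length in bases for the mouse lines and of GC content in percent for HuH-7 without IFN. Members meet all genes in the shortest Hepa1-6 class (0.247 and 0.242), lie above them in every Hep53.4 class and below them in every LLC class.

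Lists of other mitochondrial genes were counted in the same way. Of all genes, 6.95% rose and 4.38% fell in HuH-7 without IFN, 7.11% and 5.27% with IFN, and 15.1% and 18.6% with EPZ-5676. A list near these shares was called no more often than other genes. In HuH-7 without IFN, 1 of 15 complex I assembly factors rose, NDUFAF4 (log2 change 0.44), and 1 fell, NDUFAF2 (-0.50, adjusted p = 0.00597). NDUFAF2, a late assembly factor of complex I, also fell with IFN (-0.42, adjusted p = 0.00755) and with EPZ-5676 (-0.30, adjusted p = 2.98e-06). Of 26 factors for complexes IV and V, COX17, the copper chaperone of complex IV, rose without IFN (0.47) and with IFN (0.48), and 3 fell with IFN. Of 17 genes of the TCA cycle and pyruvate dehydrogenase, 2 rose and 8 fell with EPZ-5676, the largest fall being IDH3A (-0.21).

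In Hepa1-6, 4 of 14 complex I assembly factors, 2 of 10 for complexes II and III and 8 of 24 for complexes IV and V rose. Of all genes 14.5% rose there. The assembly factors were led by Pet100 (0.72), which helps assemble complex IV. In Hep53.4, 12 of 17 TCA genes rose and 2 fell (19.4% and 19.7% of all genes), with Pdhx, a pyruvate dehydrogenase component, at -0.47. In LLC 4 of 17 TCA genes fell (17.5% of all genes), led by Cs, citrate synthase, at -0.30. Bcs1l, which inserts the Rieske protein into complex III, rose by 0.34 in Hep53.4 and fell by 0.48 in LLC on the log2 scale.

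Of all genes 14.5% rose and 18.3% fell in Hepa1-6, 19.4% and 19.7% in Hep53.4, and 16.0% and 17.5% in LLC. Of 14 regulators of respiratory chain genes, 1 rose and 6 fell in Hep53.4. Ppargc1a, the coactivator PGC-1 alpha, was among those that fell (-0.42, edgeR adjusted p = 1.22e-06), in the line in which 66 subunits rose. In LLC 2 of 13 regulators tested rose and 2 fell, near the shares of all genes, with Tfam, which packages mitochondrial DNA, at 0.25. In ubiquinone synthesis 2 of 13 rose and 1 fell in Hep53.4, no more often than all genes, led by Coq9 (0.40). Mitochondrial ribosomal proteins rose and fell in 25 and 2 of 77 in Hepa1-6, 25 and 2 in Hep53.4, and 3 and 19 in LLC. Cytosolic ribosomal proteins, short and abundant mRNAs like those of the subunits, rose and fell in 35 and 0 of 79 in Hepa1-6, 72 and 1 in Hep53.4, and 2 and 69 in LLC. In HuH-7 without IFN 0 of 82 rose and 15 fell (6.95% and 4.38% of all genes). The subunits thus moved alongside the cytosolic ribosomal proteins in direction in the 3 mouse lines; whether the 2 groups share a cause was not tested.

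The naming rule left out COX4I1, NDUFAB1, USMG5, ATPIF1 and some other subunits or regulators. In Hepa1-6, 4 of 5 tested rose (14.5% of all genes), with Usmg5, a membrane subunit of ATP synthase, at 0.56. In Hep53.4, 4 of 4 rose (19.4% of all genes), between 0.16 and 0.20 on the log2 scale. In LLC 1 of 4 was called (33.5% of all genes), Cox4i1, the main subunit IV isoform, at -0.12. The other 3 stood between 0.00 and 0.05.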

How the data were processed

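RNA-seq libraries of the 36 samples were made with the VAHTS Universal V6 kit, per the labels' protocols. The authors deposited raw counts per gene symbol for each library. Per the submitters' processing notes, the tools were HISAT2 2.2.1, SAMtools 1.9, Trim Galore and DESeq2 1.36.0, with genome builds mm10 and hg38. Which counter, strand setting and annotation made the counts is not given in the sources used here. Lines without a symbol and count in the mouse sgNeg2 files were dropped (1721 in each Hepa1-6 file, 1 in each Hep53.4 file).

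Counts of each set were fitted with edgeR 4.0.16 in R 4.3.3 (TMM scaling, filterByExpr with a minimum count of 10 and total of 15, robust quasi-likelihood F test), with Benjamini-Hochberg adjustment over all genes tested and a threshold of 0.05. DESeq2 1.42.0, RLE scaling, no filter, leaving out each library, separate guides, a replicate block, other sets of libraries and a correction for GC content and length (splines with 5 degrees of freedom) were alternatives. The fit was tested on simulated data. Levels are TMM-scaled CPM computed from the deposited counts. Members with the largest changes are given where more than 10 were called (5 in each direction, mean of at least 5 CPM), otherwise all, with a panel of core subunits and the leading genes of each list. The members and lists were chosen with earlier results of these data known. Log2 changes are those of the fit.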

Additional observations from a re-analysis of the deposited data

Results flagged for a closer look

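The knockout effect differed between Hepa1-6, Hep53.4 and LLC for 56 of 78 members by the F test of the differences in edgeR, at a Benjamini-Hochberg adjusted p below 0.05 (42.1% of all genes), and this difference between groups is why these results are listed here. Atp5g2 had an adjusted p of 3.31e-08, with log2 changes of 0.32 in Hep53.4 and -0.48 in LLC, and it was not called in Hepa1-6. For Atp5b the adjusted p was 9.01e-08, with 0.30 in Hep53.4 and -0.15 in LLC. For Atp5d it was 2.53e-07, with 0.28 in Hep53.4 and -0.17 in LLC. Uqcrq had 5.29e-07, with 0.50 in Hepa1-6 and 0.14 in Hep53.4, and Cox6c 1.28e-05, with 0.52, 0.17 and -0.24 in the 3 lines. With the GC and length correction 36 of the 56 remained called.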

How the results depend on the processing

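Of 307 recomputed counts of called members 271 stayed within 1.5 times the reported count, and of 1135 recomputed calls of named members 1062 held, 70 no longer passed and 3 changed sign. In HuH-7 without IFN the rises (4) became 8 with guides as groups and 8 with sg2 alone, and ranged from 0 to 4 when a library was left out. The falls (3) became 6 in DESeq2, 1 without the filter, 10 with the GC and length correction, 13 with guides as groups, 6 with sg1 alone, 14 with sg2 alone and 5 in the 6-library fit, and ranged from 0 to 3. With IFN the rises (0) became 1 with the correction, 1 with sg1 alone and 16 with sg2 alone, ranging from 0 to 1, and the falls (0) became 6, 32 with sg1 alone and 9 with guides as groups, ranging from 0 to 1. Falls with IFN against none (4) ranged from 2 to 3, and NDUFB1 turned to 0.27 under the correction. In Hepa1-6 the rises (47) became 25 and the falls (1) 8 with the correction, with 2 falls for sg2 alone and rises from 27 to 48; Ndufb3 turned to -0.063 and Ndufv2 to -0.032. Falls in Hep53.4 (0) became 3. In LLC the rises (8) became 13 with the correction, ranging from 2 to 8, and the falls (23) became 38 with sg1 alone and 15 in the joint mouse fit, ranging from 9 to 27. The cause was not tested. Most of these counts stand without the share of all genes called under the same setting. The replicate numbers were not used as pairs in the main fits. Deviations of same-numbered libraries correlated between -0.0483 and 0.0648. Such values show no strong shared deviation, but they cannot show that the libraries were unpaired. Adding the replicate block left 4 rises and 1 fall in HuH-7 without IFN. Where a control group was left with 1 library, it was assumed to vary like the others. The correction for mouse with mouse transcripts was not run, and human transcripts stood in for them. Depth limits the genes at or near 0.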

Other observations

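Subunit c, which forms the rotating ring of ATP synthase, is encoded by 3 nuclear genes, ATP5G1, ATP5G2 and ATP5G3, whose mature proteins are the same. They were set side by side after their values were seen. With EPZ-5676, ATP5G1 rose by 0.12 on the log2 scale and ATP5G3 fell by 0.12 (edgeR adjusted p = 8.57e-05 and 7.22e-08), and ATP5G2 stood at 0.05 (adjusted p = 0.134). In LLC, Atp5g2 went from 249 and 233 CPM to between 163 and 185 (log2 change -0.48), while Atp5g3 went from 287 and 273 CPM to 309, 309, 298 and 307 (log2 change 0.10, adjusted p = 0.0409). Atp5g1 stood at -0.04 there (adjusted p = 0.557). In Hep53.4 all 3 rose, by 0.18, 0.32 and 0.15 for Atp5g1, Atp5g2 and Atp5g3. In Hepa1-6 Atp5g3 rose by 0.26, with Atp5g1 at 0.06 and Atp5g2 at 0.06 (adjusted p = 0.456 and 0.382). Whether the ring protein changed in amount was not tested.

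Muscle and testis isoforms of complex IV were low in all lines. Cox7a1, the heart and skeletal muscle isoform, lay between 4.08 and 5.26 CPM in Hepa1-6, between 0.38 and 1.13 in Hep53.4 and between 0.691 and 1.51 in LLC, while Cox7a2, the ubiquitous form, lay between 80.3 and 170 in the 18 libraries. Cox8c was listed at 0 in all 18 mouse libraries, as COX8C was in the 12 HuH-7 guide libraries. NDUFA4L2, a hypoxia-induced relative of NDUFA4, lay between 0.0927 and 1.63 CPM in the HuH-7 guide libraries, where NDUFA4 lay between 173 and 257.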
